A study of Mus musculus with 16 samples.

Results

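Krüppel-like factors (KLFs) are transcription factors with zinc fingers at the carboxyl end that bind CACCC boxes and related GC-rich sites, and they differ in the partners their other parts recruit. In macrophages, members of the family act on both sides of the inflammatory response: Klf2 is known to restrain it, Klf4 is tied to macrophage differentiation and polarisation, and Klf6 is known to support inflammatory gene expression. Klf7 belongs to the same activator group and is best known from neurons, while Klf3 recruits the corepressor CtBP, and Klf9, Klf10 and Klf13 recruit the corepressor Sin3A. Klf9 is a glucocorticoid target and Klf10 an early target of transforming growth factor beta (TGF-β). The 8 genes described here are Klf2, Klf3, Klf4, Klf6, Klf7, Klf9, Klf10 and Klf13, taken by symbol from the 43430 genes of the count table. All 8 were among the 11004 genes that passed the filter on low counts. Klf4 had been noted for a higher level without serine under lipopolysaccharide (LPS), so the genes were chosen by their levels in that comparison as well as by name, and serine withdrawal in LPS-treated cells is described for them and not tested.

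RNA was sequenced from bone marrow-derived macrophages, phagocytes grown from the marrow of C57BL/6J mice with macrophage colony-stimulating factor and moved to minimal essential medium for the experiment. LPS, a bacterial cell wall component that activates macrophages through Toll-like receptor 4, was added to 100 ng/mL for 4 h before RNA extraction. The 4 groups, with 4 libraries each, were untreated cells with serine, untreated cells without serine, LPS-treated cells with serine and LPS-treated cells without serine. All cells came from the same strain and no genetic change is named for any group. Whether replicates came from separate animals, and how long serine had been withheld, is not stated in the labels. The p-values therefore reflect only the variation among these 16 libraries, part of which may be technical.

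Total counts ranged from 2871477 to 10043362 per library. The lowest total belonged to replicate 4 of the untreated cells without serine, which detected 12900 genes against 14000 to 16031 in the other libraries and had 23.1% of its counts in 20 genes. It stood apart and is called the shallow library here. Values that turn in direction or call without it are also given without it. Replicate 1 of every group held no Xist counts and 1184 to 2391 counts from Y-linked genes, while the other libraries held 351 to 1477 Xist counts and at most 1 Y-linked count, so number 1 and the other numbers did not share an animal. All 14 macrophage markers were found, with a summed level of 21731 to 34547 CPM per library, where CPM is the count scaled to the library total after the trimmed mean of M-values (TMM) adjustment. Markers of endothelial cells, another type rich in Klf2 and Klf4, summed to 36.1 to 113 CPM, carried by Vwf and Kdr, and Tek was at 0 in every library. The T cell genes Cd3e, Cd3d and Cd3g were also at 0 in every library. The full list of 7 T and NK cell markers summed to 2.70 to 11.3 CPM, carried by Cd4. Neutrophil markers summed to 42.1 to 189.8 CPM in untreated libraries and 72.0 to 168 CPM with LPS. Dendritic cell markers summed to 3.90 to 7.27 CPM in untreated libraries and 15.0 to 25.1 CPM with LPS, and stromal markers to 1.01 to 21.3 CPM and 14.8 to 44.8 CPM. Single genes carried much of these sums. With serine, the neutrophil marker Csf3r averaged 51.2 CPM in untreated cells and 80.0 CPM with LPS. The dendritic marker Xcr1 went from 0.516 to 10.7 CPM and the stromal marker Pdgfrb from 1.11 to 22.1 CPM. The part of these cell types in the results was not tested. In bulk RNA of this kind, fewer cells of a type and less RNA per cell cannot be told apart.

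By the deposited table (mm10) Klf4 lies at chr4:55527143-55532466 on the minus strand, Klf13 at chr7:63886347-63938915 (minus), Klf9 at chr19:23141226-23166911 (plus) and Klf10 at chr15:38294413-38300707 (minus). Klf6 lies at chr13:5861489-5870393 (plus), Klf7 at chr1:64029447-64122282 (minus), Klf3 at chr5:64803523-64830129 (plus) and Klf2 at chr8:72319033-72321656 (plus). The upstream sequences of these genes are shown because KLF proteins bind CACCC and GC-rich letters, which the genes' own promoters can hold. RefSeq sequence on GRCm38.p6 was matched for 7 of the 8 genes, and the 250 bases before the start site were searched on both strands. No sequence was matched for Klf10, which was also higher without serine under LPS. Below, Klf4, Klf13 and Klf9 are printed for their higher levels without serine under LPS and Klf6 as the most abundant member. Capitals mark each CACCC match and each GC box, GGGCGG, on either strand. For Klf2, a shorter window of 30 bases is printed, in which the capitals mark a match to the MEF2 motif.
Klf4 (chr4:55532476-55532725, minus strand): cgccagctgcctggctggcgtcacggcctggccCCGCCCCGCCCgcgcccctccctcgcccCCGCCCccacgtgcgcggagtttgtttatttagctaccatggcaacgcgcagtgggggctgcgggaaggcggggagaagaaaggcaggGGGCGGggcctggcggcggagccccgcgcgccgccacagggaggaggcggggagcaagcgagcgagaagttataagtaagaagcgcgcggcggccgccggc
Klf13 (chr7:63938916-63939165, minus strand): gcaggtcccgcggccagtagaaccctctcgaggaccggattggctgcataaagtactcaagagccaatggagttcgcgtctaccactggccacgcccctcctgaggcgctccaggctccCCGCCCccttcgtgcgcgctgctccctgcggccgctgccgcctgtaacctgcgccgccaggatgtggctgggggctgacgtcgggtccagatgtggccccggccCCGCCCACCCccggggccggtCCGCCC
Klf9 (chr19:23140976-23141225, plus strand): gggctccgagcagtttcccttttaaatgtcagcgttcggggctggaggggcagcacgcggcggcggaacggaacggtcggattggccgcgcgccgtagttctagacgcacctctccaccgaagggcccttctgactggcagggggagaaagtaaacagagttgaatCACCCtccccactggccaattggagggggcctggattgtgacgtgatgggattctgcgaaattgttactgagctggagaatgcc
Klf6 (chr13:5861239-5861488, plus strand): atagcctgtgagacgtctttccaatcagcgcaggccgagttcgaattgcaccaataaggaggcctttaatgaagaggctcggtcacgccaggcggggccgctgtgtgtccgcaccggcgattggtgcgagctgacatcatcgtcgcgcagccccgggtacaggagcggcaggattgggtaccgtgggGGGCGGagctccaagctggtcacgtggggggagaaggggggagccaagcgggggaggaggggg
Klf2 window (chr8:72318934-72318963, plus strand): tataccgcggCTAAATTTAGgctgagcccg

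GC boxes were found upstream of 6 of the 7 genes and CACCC upstream of 5 of the 7, against 32.7% and 52.0% of all 32851 promoters of the same length. Klf4 had 4 GC boxes and no CACCC, Klf13 had 3 and 1, Klf9 had 1 CACCC and no GC box, and Klf6 had 1 GC box. The 2 motifs overlap in places, as in the run CCGCCCACCC of Klf13, where neighbouring matches share letters. The upstream sequences of the 7 genes held 59.2% to 78.4% G and C and 13 to 32 CpG dinucleotides, where the medians over all promoters were 52.4% and 6. Only Klf2 had a match to MEF2, the factor through which the kinase Mapk7 (ERK5) is known to induce it, and 2.92% of all promoters had one. No match was found in the 7 sequences to TGATGNAA, a composite site of C/EBP and ATF factors, to the cyclic AMP response element TGACGTCA, to TATAAA, or to the NF-κB and CArG motifs searched by their usual consensus. These motifs were present in 3.45%, 1.55%, 12.4%, 7.25% and 1.47% of all promoters. A match here describes letters and is not evidence of binding.

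Levels were compared between genes per kilobase of the deposited gene length. Klf6 was the most abundant member in all 4 groups, at 68.1 CPM per kilobase in untreated cells with serine and 307 in LPS-treated cells with serine. Klf13 followed at 29.6 and 37.9 CPM per kilobase. Its libraries lay clear of those of Klf10, the next in order, in untreated cells with serine, at 28.8 to 30.3 against 26.0 to 28.8, by a margin smaller than the range of either gene. In the same untreated group Klf4, Klf3, Klf2 and Klf9 had means of 8.87, 7.23, 6.20 and 6.00 CPM per kilobase, and each overlapped the next in order across the libraries. Klf7 was lowest at 0.664 CPM per kilobase and overlapped none of them. With LPS and serine the order became Klf6, Klf13, Klf3, Klf10, Klf4, Klf2, Klf7 and Klf9, in which Klf3 and Klf10 overlapped, as did Klf4, Klf2 and Klf7. Klf9 moved to the lowest place, at 2.73 CPM per kilobase. Without serine under LPS, Klf4 reached 16.8 CPM per kilobase, from 14.4 to 19.0, which no longer overlapped Klf2 at 4.86 to 11.1.

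**Figure D1:**
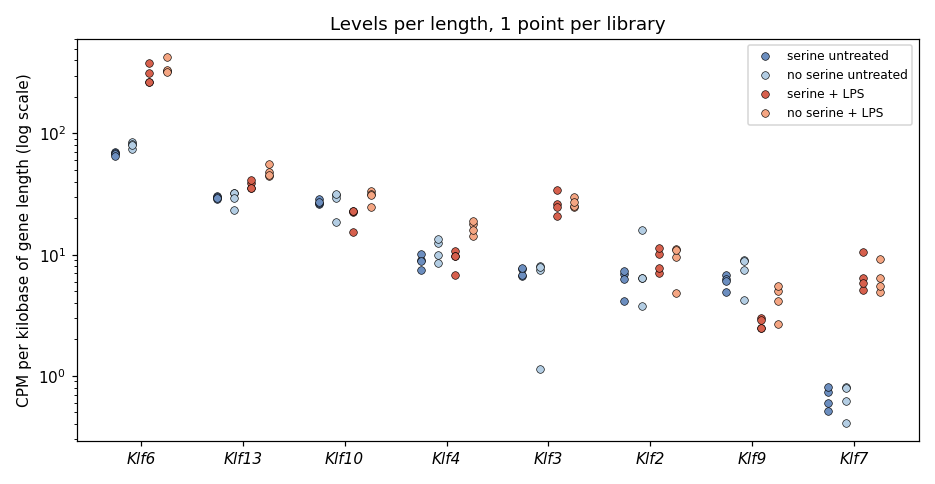
Level of the 8 KLF genes in CPM per kilobase of gene length on a log axis, with 1 point per library, coloured by group. Klf6 lies highest in every group, Klf7 is lowest in untreated cells, and Klf9 has the lowest mean with LPS, where single libraries without serine overlap those of Klf7 and Klf2.

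**Figure D2:**
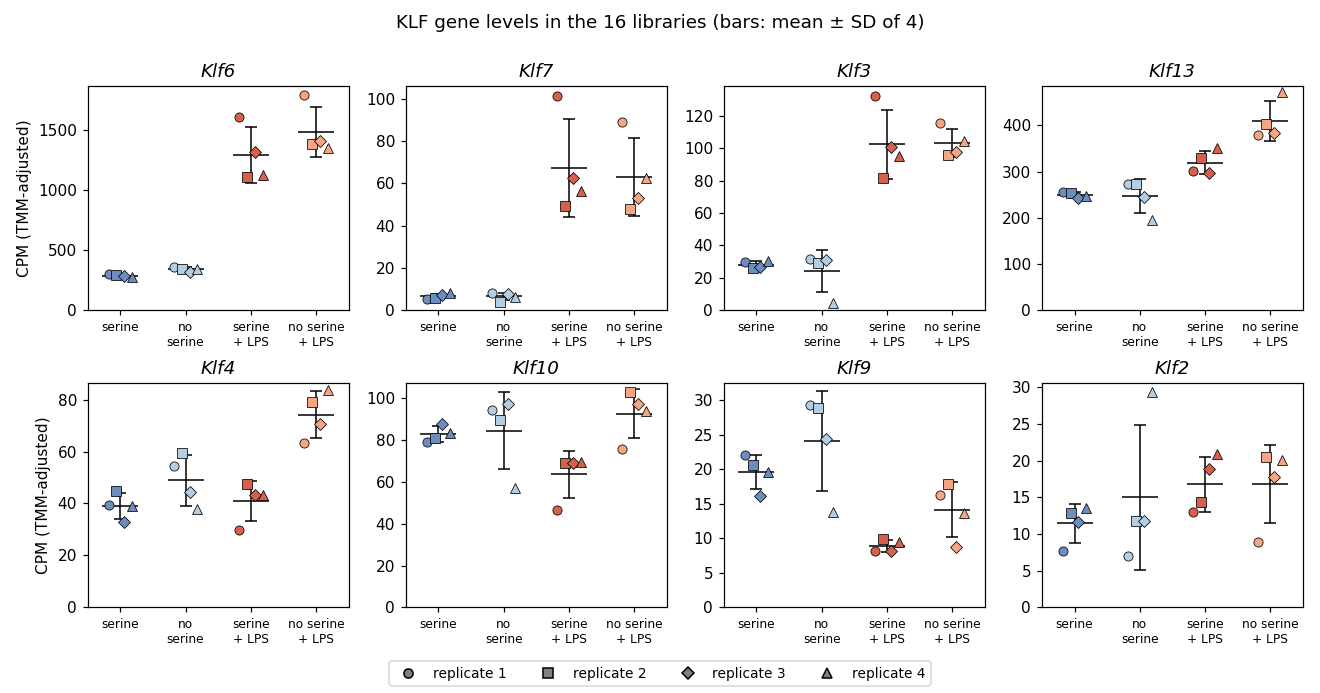
CPM of each KLF gene in every library of the 4 groups, with 1 point per library, shaped by replicate number, and bars for the mean ± SD of 4. Klf3, Klf6 and Klf7 separate untreated from LPS-treated cells, and Klf4 is highest in the LPS-treated cells without serine.

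The effect of LPS was tested first, in cells with serine and in cells without it. Klf6, Klf7 and Klf3 rose with LPS in both media and Klf9 fell in both. Klf13 rose in both and Klf4 in cells without serine, though on total-count scaling neither passed as higher and Klf13 turned negative with serine. With serine 4 of the 8 genes rose and 1 fell at an adjusted p of 0.05, where 27.6% of all genes tested rose and 28.2% fell. Without serine 5 rose and 1 fell, where 27.1% of all genes rose and 29.7% fell. The median log2 fold change of the 8 genes was 0.45 with serine and 0.66 without it, beside -0.03 and -0.12 over all genes tested. On total-count scaling 20.6% of all calls with serine were higher, against 49.5% with TMM, and 20.4% against 47.7% without serine. The counts and medians are descriptions of chosen genes. Fold changes come from a quasi-likelihood fit in edgeR, each p is Benjamini-Hochberg adjusted across the whole set of tested genes, and ± after a fold change is its standard error.

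Among the activators, Klf6 and Klf7 showed the largest fold changes with LPS. In replicates 1 to 4, Klf6 stood at 298, 292, 284 and 275 CPM in untreated cells with serine and at 1612, 1111, 1321 and 1131 CPM with LPS and serine. Without serine it stood at 361, 344, 313 and 341 CPM in untreated cells and at 1796, 1384, 1410.3 and 1349 CPM with LPS. No LPS-treated library came near an untreated one, and replicate 1 was the highest in both LPS groups. The log2 fold change was 2.17 ± 0.14 with serine (adjusted p = 8.18e-10) and 2.13 ± 0.14 without it (adjusted p = 1.11e-09). Klf7 went from 4.95, 5.84, 7.17 and 7.79 CPM to 102, 49.4, 62.5 and 56.7 CPM with serine. In cells without serine it went from 7.81, 3.96, 7.69 and 6.07 CPM to 89.4, 47.9, 53.1 and 62.6 CPM. The lowest member without LPS thus had the largest fold change, with no overlap between untreated and LPS-treated libraries. Its log2 fold change was 3.40 ± 0.28 with serine (adjusted p = 2.40e-08) and 3.30 ± 0.28 without it (adjusted p = 4.32e-08).

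Klf4, which takes part in monocyte differentiation, had a mean log2 fold change near 0 with LPS in the presence of serine. With serine it stood at 39.6, 44.9, 32.8 and 39.1 CPM in untreated cells and at 29.9, 47.5, 43.2 and 43.4 CPM with LPS, and the groups overlapped. Its log2 fold change there was 0.06 ± 0.17 (adjusted p = 0.770), with a 95% confidence interval from -0.29 to 0.41. Without serine it stood at 54.6, 59.4, 44.2 and 37.8 CPM in untreated cells and at 63.3, 79.2, 70.5 and 83.6 CPM with LPS, and no library overlapped. This log2 fold change was 0.59 ± 0.16 (adjusted p = 0.00589). Each of these comparisons uses LPS-treated libraries in which the gene was noted, so neither is independent of that choice. On total-count scaling, which lowers the median of all genes by 0.62 (log2) with serine and by 0.57 without, Klf4 fell by 0.55 with serine (adjusted p = 0.0155) and was at 0.00 without it (adjusted p = 0.995). Both moved about as far as the median gene. The difference between its LPS effects in the 2 media is given below as a description, with no test.

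Klf2, the member best known for holding back monocyte activation, was low and variable. It stood at 7.68, 12.9, 11.7 and 13.5 CPM in untreated cells with serine and at 12.9, 14.3, 18.8 and 21.0 CPM with LPS and serine. Without serine it stood at 7.01, 11.8, 11.8 and 29.3 CPM in untreated cells and at 8.98, 20.5, 17.8 and 20.1 CPM with LPS. Replicate 1 was the lowest library in each of the 4 groups, and the value of 29.3 belonged to the shallow library. The log2 fold change with LPS was 0.55 ± 0.35 with serine (adjusted p = 0.204) and 0.25 ± 0.36 without it (adjusted p = 0.559), and neither passed. With the replicate number as a block, Klf2 rose by 0.56 ± 0.22 with serine (adjusted p = 0.0406). Without the shallow library it rose by 0.73 in cells lacking serine (adjusted p = 0.0346). On total-count scaling its log2 fold change was -0.07 with serine and -0.28 without, and neither passed.

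Klf3, the CtBP-binding repressor, rose about as far as Klf6. In untreated cells it stood at 29.4, 26.1, 26.4 and 30.2 CPM with serine and at 31.3, 29.0, 30.9 and 4.38 CPM without it. With LPS it stood at 132, 81.5, 101 and 95.6 CPM with serine and at 116, 96.2, 97.7 and 105 CPM without it. The value of 4.38 CPM is 13 counts in the shallow library, against 29.0 to 31.3 CPM in the rest of its group, and no LPS-treated library overlapped an untreated one. The log2 fold change was 1.87 ± 0.32 with serine (adjusted p = 0.000103) and 2.06 ± 0.32 without it (adjusted p = 4.62e-05). Without the shallow library the latter was 1.77 (adjusted p = 6.44e-09).

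The Sin3A-binding members went in different directions. Klf13, known as a regulator of Ccl5 in T cells, stood at 255, 253, 243 and 247 CPM in untreated cells with serine and at 301, 329, 297 and 351 CPM with LPS and serine. Without serine it stood at 272, 273, 245 and 195 CPM in untreated cells and at 378, 403, 384 and 472 CPM with LPS. The LPS-treated libraries lay above the untreated ones in both media. Klf13 rose by a log2 fold change of 0.36 ± 0.12 with serine (adjusted p = 0.0172) and 0.73 ± 0.12 without it (adjusted p = 6.28e-05). With serine the call was lost when replicate 4 with LPS and serine was left out (0.31, adjusted p = 0.0598) and when number 1 was left out of all groups (0.36, adjusted p = 0.0516). On total-count scaling Klf13 had -0.26 with serine (adjusted p = 0.117) and 0.15 without.

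Klf9 fell in both media, and on total-count scaling Klf10 did too. Klf9 stood at 22.0, 20.6, 16.1 and 19.6 CPM in untreated cells with serine and at 8.19, 9.84, 8.13 and 9.48 CPM with LPS and serine. Without serine it stood at 29.3, 28.8, 24.4 and 13.8 CPM in untreated cells and at 16.3, 17.9, 8.78 and 13.6 CPM with LPS. The groups did not overlap with serine and did without it, where the shallow library held the 13.8. Klf9 fell by 1.14 ± 0.23 on the log2 scale with serine (adjusted p = 0.000478) and by 0.79 ± 0.22 without it (adjusted p = 0.00632). Klf10 stood at 79.1, 81.0, 87.7 and 83.4 CPM in untreated cells with serine and at 46.7, 69.1, 69.3 and 69.4 CPM with LPS and serine. Every LPS-treated library with serine lay below every untreated one, and replicate 1 was the lowest. The log2 fold change was -0.38 ± 0.16 (adjusted p = 0.0592), past the threshold with the replicate block (-0.39 ± 0.16, adjusted p = 0.0435), on total-count scaling (adjusted p = 0.000212) and without the shallow library (-0.38, adjusted p = 0.00807). Without serine Klf10 stood at 94.4, 89.7, 97.1 and 57.0 CPM in untreated cells and at 76.0, 103, 97.4 and 94.1 CPM with LPS, a log2 fold change of 0.12 ± 0.16 (adjusted p = 0.535) that was -0.46 on total-count scaling (adjusted p = 0.0358) and -0.02 without the shallow library.

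Across libraries, levels with LPS and serine lay wholly above the untreated ones for Klf3, Klf6, Klf7 and Klf13 and wholly below for Klf9 and Klf10, where 30.7% of all genes lay wholly above and 30.9% wholly below. Without serine Klf3, Klf4, Klf6, Klf7 and Klf13 lay wholly above and none wholly below, where 25.3% and 22.4% of all genes did. Klf4 had been noted for its level in these LPS-treated libraries, so its separation is not independent of that choice. For Klf3, Klf6, Klf7 and Klf9 the direction and the call held in both LPS comparisons under each of 25 other settings, total-count scaling included.

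**Figure D3:**
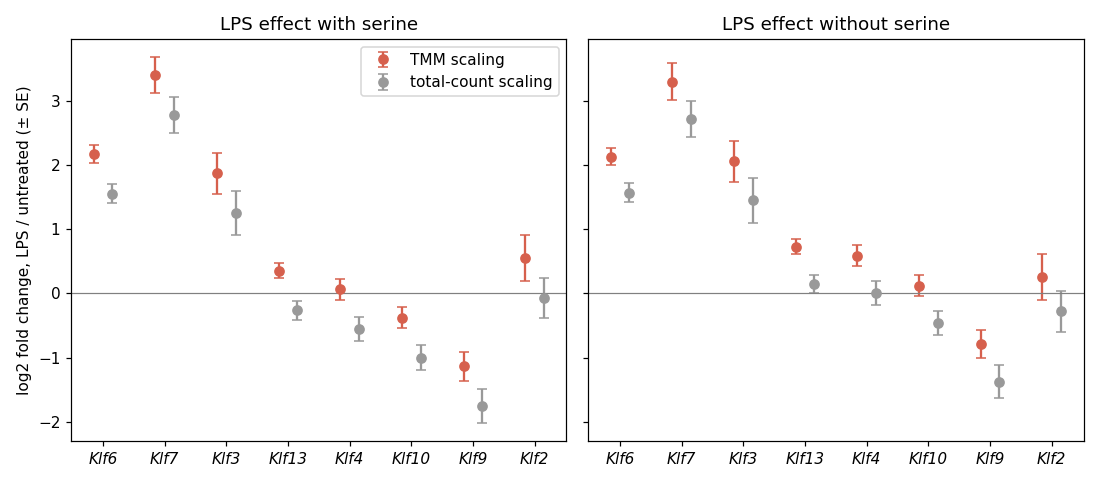
Log2 fold change with LPS for each KLF gene, with serine and without it, under TMM and under total-count scaling, with bars giving the standard error. Klf7, Klf6 and Klf3 lie highest in both media under both scalings and Klf9 lies below 0 throughout, while Klf4 under TMM is near 0 with serine and at 0.59 without and lies lower on total counts.

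Serine withdrawal in untreated cells gave a narrower picture. None of the 8 genes passed edgeR's test, none was under an unadjusted p of 0.05, and DESeq2 called none. Among all genes tested, edgeR called 0% at an adjusted p of 0.05, 548 were under an unadjusted p of 0.05, DESeq2 called 12 higher and 1 lower, and the replicate block 9 higher. The median log2 fold change of the 8 genes was 0.14 beside 0.01 over all genes. Klf6 was higher without serine in 4 of 4 replicate pairs, by 1.10 to 1.24 times, and its groups did not overlap, where 8.72% of all genes were higher in every pair and 1.46% lay wholly above. Its log2 fold change was 0.24 ± 0.13 (adjusted p = 0.816).

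Klf4 was at a log2 fold change of 0.33 ± 0.16 (adjusted p = 0.816), with a 95% confidence interval from -0.01 to 0.68, and higher in 3 of 4 pairs, by 0.966 to 1.38 times. Klf9 was at 0.32 ± 0.22 (adjusted p = 0.816), also higher in 3 of 4 pairs. Klf2, Klf3, Klf7, Klf10 and Klf13 had log2 fold changes of 0.30, -0.17, 0.01, 0.04 and -0.02. In Klf3, Klf4, Klf9, Klf10 and Klf13 the pair that was lower without serine was the shallow library's. Without that library Klf3, Klf2 and Klf13 changed sign, to 0.12, -0.18 and 0.08, and Klf10 was at 0.18. With the replicate block and without that library, Klf9 rose by 0.49 (adjusted p = 0.0445), the only member to pass in that fit. Klf4 was at 0.46 there (adjusted p = 0.0630), and among all genes 70 were called higher and 9 lower.

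Serine withdrawal in LPS-treated cells is the comparison for which Klf4 was noted. At the levels given above, the lowest Klf4 value without serine was 63.3 CPM and the highest with serine was 47.5 CPM. Klf4 was 1.63 to 2.12 times higher without serine in 4 of 4 pairs, with a log2 fold change of 0.86 ± 0.17. Its mean level was 74.2 ± 9.06 CPM (SD, n = 4) without serine and 41.0 ± 7.64 CPM (SD, n = 4) with it. The Sin3A-binding members were likewise higher without serine in 4 of 4 pairs. Klf10 was 1.36 to 1.63 times higher, Klf13 1.23 to 1.34 times and Klf9 1.08 to 1.99 times, with log2 fold changes of 0.54 ± 0.17, 0.36 ± 0.12 and 0.67 ± 0.24. The spread between pairs was widest for Klf9, whose replicate 3 differed least.

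Klf6 was also higher in 4 of 4 pairs, by 1.07 to 1.25 times (0.20 ± 0.13), while its groups overlapped. The remaining members showed no common direction. Klf3 was higher in 2 of 4 pairs (0.01 ± 0.31), and Klf2 (0.00 ± 0.35) and Klf7 (-0.10 ± 0.25) in 1 of 4. A gene was higher in 4 of 4 pairs for 18.6% of all genes tested and lay wholly above for 4.27%, as Klf4, Klf10 and Klf13 did. On total-count scaling Klf4, Klf6, Klf9, Klf10 and Klf13 were also higher in 4 of 4 pairs. In the test over all genes, which is given for scale, 6 were called higher and 1 lower, 0.0636% of those tested, and with the replicate block 73 higher and 25 lower. The members just inside and just outside separation of the groups were Klf13, with 378 CPM as the lowest value without serine and 351 as the highest with it, and Klf9, with 8.78 and 9.84 CPM.

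**Figure D4:**
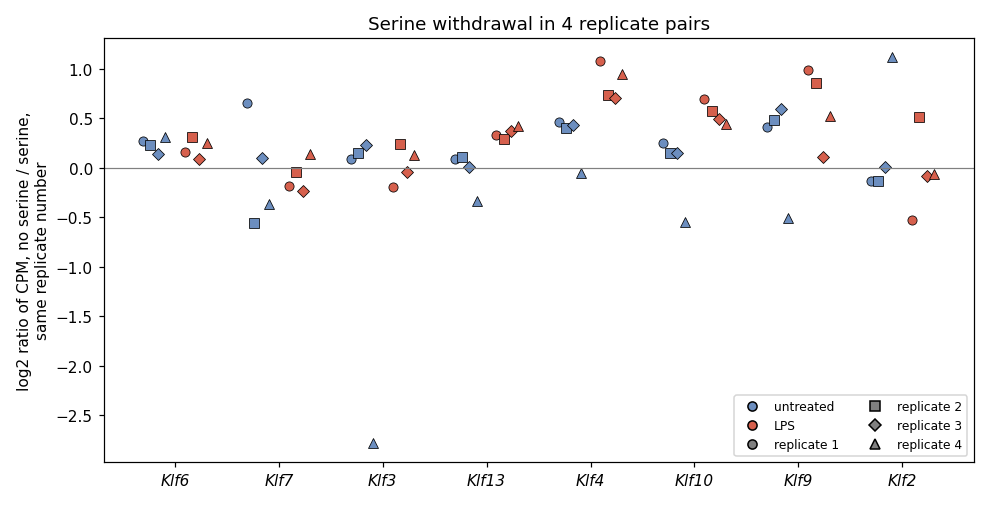
Log2 ratio of the level without serine to the level with serine in each replicate pair, for untreated and LPS-treated cells. Under LPS, Klf4, Klf6, Klf9, Klf10 and Klf13 lie above 0 in all 4 pairs. In untreated cells replicate 4 is the low point of Klf3, Klf4, Klf9, Klf10 and Klf13.

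The effect of withdrawal was next set against LPS status, again as a description. The log2 difference between the withdrawal effect with LPS and without it was 0.52 ± 0.23 for Klf4, 0.50 ± 0.23 for Klf10 and 0.37 ± 0.17 for Klf13. It was 0.35 ± 0.32 for Klf9. For Klf3, Klf6, Klf7 and Klf2 it was 0.18 ± 0.44, -0.04 ± 0.18, -0.10 ± 0.38 and -0.29 ± 0.50, in each case smaller in size than its error. Klf4 kept a positive difference of 0.40 to 0.63 when each library in turn was left out. So did Klf10 (0.37 to 0.59), Klf13 (0.28 to 0.43) and Klf9 (0.19 to 0.52), while Klf2, Klf3, Klf6 and Klf7 changed sign. The range for Klf4 does not undo its choice by its level in the LPS-treated libraries. Without the shallow library Klf3 turned to -0.10 and Klf2 to 0.18, Klf10, Klf13 and Klf9 were at 0.37, 0.28 and 0.19, and Klf6 and Klf7 at -0.04 and -0.12. Over all genes tested edgeR called none for this difference, 253 were under an unadjusted p of 0.05, and DESeq2 called 1.

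Other genes of the family and its known partners were read from lists written with earlier results of these data known. They held 62 genes in 6 lists, of which 49 were tested. With LPS 31 of these 49 passed in cells with serine and 30 in cells without, where 55.8% and 56.8% of all genes passed. In neither serine withdrawal did any of the 49 pass edgeR's test, and DESeq2 called none, while 2 in untreated cells and 6 in LPS-treated cells were under an unadjusted p of 0.05.

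Of 9 other KLF genes, 3 were tested, and with serine 1 rose and 1 fell with LPS. Klf8, a CtBP-binding relative of Klf3, rose from 3.54 to 35.2 CPM on average (3.31 ± 0.29, adjusted p = 4.11e-08), a fold change like that of Klf7. Klf11, a Sin3A-binding relative of Klf10, fell by 1.15 ± 0.12 (adjusted p = 3.62e-07). Klf16 was at 0.08 ± 0.16 and did not pass, and on total-count scaling the list had 1 higher and 2 lower, Klf16 among the lower. Klf5, known from epithelium, had at most 19 counts in a library, and Klf1, the erythroid member, at most 3. Of 9 genes of the related SP family 4 were tested, and Sp2 (0.82 ± 0.15) and Sp4 (0.44 ± 0.15) rose with LPS and serine, though on total-count scaling Sp2 did not pass (0.21) and Sp4 had -0.18. The Sp4 call was also lost when replicate 3 with LPS and serine was left out (adjusted p = 0.0583) and without number 1 (adjusted p = 0.0897).

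The 15 genes upstream of KLF expression comprise the ERK5 cascade with MEF2, the FOXO factors, the glucocorticoid receptor and TGF-β signalling. All 15 were tested, and 3 rose and 8 fell with LPS both with and without serine. On average Nr3c1, the glucocorticoid receptor, went from 91.8 to 346 CPM with serine (1.91 ± 0.16), in the comparison in which the glucocorticoid target Klf9 fell. Smad2, a TGF-β signal carrier, rose by a log2 fold change of 0.68 ± 0.10 (0.06 and not passing on total-count scaling), while its partner Smad3 fell by 2.83 ± 0.25 and Foxo3 fell by 2.52 ± 0.11. The MEF2 genes Mef2a, Mef2c and Mef2d, singled out after their values were seen, fell with serine, with log2 fold changes of -0.98, -1.16 and -1.71 (adjusted p at most 0.000136). On total-count scaling the same list had 1 higher and 12 lower.

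Coactivators and corepressors were split, with 4 of 11 higher and 1 lower with serine, and 3 higher and 2 lower without. On total-count scaling they were 2 higher and 8 lower with serine, and 2 and 5 without. The acetyltransferase Kat2b (1.96 ± 0.19) and the deacetylase Hdac1 (1.14 ± 0.20) rose in cells with serine, and Sin3a, the partner of Klf9, Klf10 and Klf13, fell by 0.42 ± 0.15 (adjusted p = 0.0236), a call lost when replicate 2, 3 or 4 with LPS and serine was left out (adjusted p of 0.0797, 0.0510 and 0.0572). Ctbp1 and Ctbp2, the partners of Klf3, were at 0.02 and -0.05 with TMM and did not pass. On total-count scaling the median of these 11 genes moved from 0.02 to -0.59. With 2 higher and 8 lower there, Ctbp1 and Ctbp2 cannot both have stayed uncalled. Of 5 ubiquitin ligases that act on KLF proteins 2 rose and 1 fell with serine, and on total-count scaling none rose and 3 fell. Smurf1 rose from 70.5 to 141 CPM (adjusted p = 2.33e-05) and Fbxw7 by 0.58 ± 0.15, and on total-count scaling neither passed (0.38 and -0.04). Wwp1, a ligase for KLF2 protein, went from 328 to 129.8 CPM and fell by 1.34 ± 0.18.

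Of 13 genes described elsewhere as KLF targets in leukocytes 11 were tested, and 4 rose and 4 fell with serine. The chemokine Ccl5 rose from 94.8 to 1539.5 CPM (4.02 ± 0.29), and the cell cycle inhibitor Cdkn1a from 199 to 2764 CPM (3.79 ± 0.17). Thbd, the anticoagulant receptor thrombomodulin, fell by 3.74 ± 0.33 and S1pr1, the sphingosine phosphate receptor, by 3.04 ± 0.16. The last pair are known targets of Klf2.

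Likeness of pattern was measured as the mean absolute difference of centred log2 CPM over the 16 libraries, among 10465 genes with a symbol. It is a description. The genes nearest to Klf4 were Prrc1, Trim35 and Gas2l3, at 0.150, 0.175 and 0.181, where the median gene lay at 0.508. Rbm47, an RNA-binding protein, was nearest to Klf13, at 0.0708. Rbbp8, which acts in DNA repair, and Cd44, the hyaluronan receptor, were nearest to Klf6, at 0.0887 and 0.0968. Klf3 was nearest to Nup98, Klf7 to Gadd45b, Klf9 to Tecpr1, Klf10 to Sos2 and Klf2 to Ifi27, at 0.171, 0.229, 0.185, 0.112 and 0.192. Among the members themselves, Klf4 lay nearest to Klf13 (0.227) and Klf10 (0.255), Klf3 to Klf6 (0.359), and Klf7 was farthest from Klf9 (2.10).

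The authors' deposited table for LPS with serine marks 4 of the 8 genes higher and 2 lower, the lower pair being Klf9 and Klf10, with an adjusted p of 0.00733 for Klf10. The authors' deposited table for LPS without serine marks Klf3, Klf6, Klf7 and Klf13 higher and none lower. It gives Klf4 and Klf9 an adjusted p of 0.0211 and 0.0221 without a mark. The authors' deposited table for withdrawal in untreated cells marks none of the 8. For withdrawal in LPS-treated cells the authors' deposited table marks only Klf4, as higher, at a log2 fold change of 0.85. Klf4 was noted in this comparison and the mark rests on the same libraries, so it is not independent of that choice. Over all 11583 genes listed for LPS with serine, the authors marked 3227 higher and 3182 lower. Over the 11573 genes listed for LPS without serine, they marked 2213 and 1968. Withdrawal had 6 and 0 marks over 11534 genes in untreated cells and 65 and 20 over 10908 in LPS-treated cells.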

How the data were processed

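The files hold raw counts per Ensembl gene in 16 libraries, deposited by the authors with gene length and mm10 position. Tools named per the submitters' processing notes are HTSeq, STAR, edgeR, SAMtools and Trimmomatic 0.33, on build mm10, without saying what each did. The FPKM values are also deposited by the authors, and the order of the 8 genes by deposited FPKM was the same as by CPM per kilobase in every group. The authors' deposited tables of comparisons give log2 fold changes, adjusted p-values and marks for genes called higher or lower, with no scaling stated. The table held 24 further per-sample columns, which were not used. The library kit does not mark strand, per its name in the labels' protocols, and annotated genes overlapping the 8 had at most 4 counts in any library.

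Counts were fitted with edgeR 4.0.16 (R 4.3.3, limma 3.58.1) by the robust quasi-likelihood test on 4 group means over all 16 libraries, with filterByExpr, TMM scaling and Benjamini-Hochberg adjustment over 11004 genes at an adjusted p of 0.05. CPM values use TMM-adjusted library sizes, so a level reads against the typical gene, and with LPS the choice of scaling moves every fold change by about the same amount. The code was tested on simulated data with known fold changes. Log2 CPM profiles used a prior count of 2.

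The 8 members and all lists were chosen with earlier results of these data known. The named genes were drawn from the 8 members, up to 2 genes per direction with the largest change past the threshold in each list and comparison, and the 3 nearest profiles of each member. From the lists, Klf1, Klf5, Klf16, Ctbp1, Ctbp2 and the MEF2 genes were named outside this rule. Hdac3 and Stub1, both lower with LPS in cells without serine, met the rule and were not described. In each comparison the deviations from the group means of same-numbered libraries correlated at 0.125 to 0.660, and those of different numbers at -0.373 to 0.141, so the replicate numbers pair the libraries across groups. Pairs of libraries differed by more than sampling noise throughout (lowest chi-square per degree of freedom 2.04 over 120 pairs), so all 16 were counted. The alternatives were total-count and RLE scaling, DESeq2 1.42.0, no filter and a filter at a mean of 50 counts, the replicate block, only the 2 groups compared, and leaving out single libraries or number 1.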

Additional observations from a re-analysis of the deposited data

Results flagged for a closer look

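Of 32 groups of 4 libraries, 1 for each of the 8 genes in each of the 4 groups, 3 held a library far from the other three by Dixon's criterion, and chance flags about 1 group in 20. Klf3 stood at 4.38 CPM in replicate 4 of the untreated cells without serine, the library with the lowest total count, against 29.0 to 31.3 CPM in the others. Klf6 stood at 1796 CPM in replicate 1 of the LPS-treated cells without serine, above 1349 to 1410.3 CPM in the others. Klf10 stood at 46.7 CPM in replicate 1 with LPS and serine, below 69.1 to 69.4 CPM in the others. Both libraries numbered 1 lack Xist counts, and whether this bears on either value was not tested.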

How the results depend on the processing

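Each comparison was recomputed under 25 alternatives, or 24 for the difference between the withdrawals. In the LPS comparisons scaling moved the calls: on total counts, 1666 of all genes were called higher and 6407 lower with LPS and serine (20.6% higher, against 49.5% of 3041 and 3098 calls), and 1686 and 6566 without serine (20.4%, against 47.7% of 2984 and 3266). On that scaling the direction turned for some named genes. With serine these were Klf2 (-0.07), Klf16, Klf4 (-0.55), Klf13 (-0.26), Sp4 (-0.18) and Fbxw7 (-0.041). Without serine they were Klf2 (-0.28), Klf10 (-0.46) and Fbxw7 (-0.032). Ctbp1 and Ctbp2 were not followed singly on that scaling. The members called lower with LPS and serine then numbered 3, and without serine 3 members were called higher and 2 lower. With LPS and serine 2 members were called lower, in place of 1, with the filter at a mean of 50 counts, with the replicate block, with only the 2 groups compared, with DESeq2, and with the block without the shallow library. The replicate block without that library called 1 member higher after withdrawal in untreated cells, in place of 0.

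Leaving out single libraries gave 3 to 4 members higher and 1 to 2 lower with LPS and serine, 5 to 6 and 1 without serine, and 0 for withdrawal in untreated cells. The Klf4 withdrawal effect under LPS then ran from 0.73 to 0.94. Those of Klf9 (0.54 to 0.84), Klf10 (0.42 to 0.62), Klf13 (0.28 to 0.41) and Klf6 (0.09 to 0.32) also stayed above 0. Those of Klf2, Klf3 and Klf7 changed sign. Klf4 was noted in this comparison, and its range does not undo that choice. Over all genes, withdrawal in LPS-treated cells had 6 higher and 1 lower calls by the main model, 73 and 25 with the replicate block, 92 and 18 with DESeq2, 112 and 44 without the shallow library, 553 and 369 with both the block and that omission, 24 and 11 with only the 2 groups, 15 and 6 with the filter at 50, 3 and 1 with no filter, and 0 on total counts or without number 1. Leaving out any other single library gave 0 to 6 higher and 0 to 1 lower, with no call in either direction without replicate 2, 3 or 4 with LPS and serine or replicate 4 with LPS and no serine. Withdrawal in untreated cells had 0 calls, 9 higher and 0 lower with the block, 70 and 9 with the block and without the shallow library, 2 and 0 with no filter, and 12 and 1 with DESeq2. The difference between the withdrawals had 0, 1 higher with DESeq2, and 4 and 4 with the block without that library. The block also let Klf2 pass with LPS and serine and changed no other call of the 8 genes beside that of Klf10. The cause of these changes was not tested. Depth limits the low values: Klf3 in the shallow library rests on 13 counts and Klf7 there on 18.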
